A study of Homo sapiens with 6 samples.

Results

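The subject is a set of 31 KRAB zinc finger genes in the cluster at 19p12, on the short arm of human chromosome 19, in HCT116 cells, an established human colorectal cancer line. The members were chosen by gene symbol, and the list was drawn up with results of the same knockout against control contrast already known. Their fold changes and calls are therefore a description, and nothing is tested or supported with them. All 31 symbols were among the 56638 in the count tables. The series compared 3 libraries labelled ZFP90 knockout with 3 libraries labelled control, from cells at passage 16 to 19. Per the labels, guide RNAs were aimed at exon 3 of ZFP90, itself a KRAB zinc finger gene. The labels give neither what the control cells carried nor whether the knockout cells were 1 clone or a pool, and they do not say that replicates were separate cultures. The spread between libraries may therefore be technical.

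KRAB zinc finger proteins bind DNA through arrays of C2H2 zinc fingers and carry a KRAB domain that recruits the corepressor TRIM28. TRIM28 in turn brings the histone methyltransferase SETDB1 and heterochromatin proteins, and many targets of this system are transposable elements. The 19p12 cluster grew by tandem duplication in primates, and many of its genes are close copies of one another. Its best known members are ZNF91, which represses SVA retrotransposons, and ZNF93, which represses a group of LINE-1 elements.

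Reads in genes numbered 14450905 to 17012910 in the libraries labelled ZFP90 knockout and 13424356 to 16215490 in the control libraries. A count of 3 reads corresponded to 0.176 to 0.208 CPM, the read count scaled to the size of its library, in the knockout libraries and 0.185 to 0.224 CPM in the controls, before scaling. These limits cover counting error only. RNA of ZFP90 was higher in the libraries labelled knockout, at 86.9, 80.5 and 89.8 CPM, against 47.5, 47.4 and 43.1 CPM in the controls. Gene counts do not show whether the exon 3 target was disrupted, and directions are given for the libraries as labelled. The epithelial markers EPCAM, CDH1 and KRT8 were abundant in all 6 libraries, and the leukocyte gene PTPRC had 1 read in all. Of the 8 epithelial markers listed, CDX1 had 0 reads and VIL1 8 reads in total, and neither was tested. CDX2 had a mean of 16.2 CPM in the libraries labelled knockout and 15.6 CPM in the controls. Summed leukocyte markers were 4.33 to 4.78 CPM in the libraries labelled knockout and 5.93 to 6.71 CPM in the controls, with 2 of 10 genes tested, CD4 called lower and 2 genes at 0. Summed epithelial markers (1 of 6 tested genes called lower) were 2686 to 2808 CPM in the libraries labelled knockout and 2713 to 2846 CPM in the controls, and stromal markers (1 of 7 lower) 77.3 to 99.5 CPM in the libraries labelled knockout and 78.2 to 98.7 CPM in the controls. Their part in the results was not tested. Control replicate 2 stood apart from both other controls, with a chi-square per degree of freedom of 19.8 in each pairing, against 2.20 to 3.98 for the 4 other pairs of replicates. Over the 961 tested genes placed on chromosome 19 its median lay 0.03 above the other controls on the log2 scale, and over the tested members 0.10 above them.

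The cluster divided into genes that were read in every library and genes that were almost silent. Of the 31 members, 13 reached at least 10 reads in at least 3 libraries, and the same number passed the filter on low counts and were tested. Another 13 had 0 reads in all 6 libraries, and the other 5 had between 1 and 7 reads in total. The gap between both classes was wide. ZNF85, the tested member with the fewest reads, had 25, 29 and 33 reads in the libraries labelled knockout and 21, 15 and 25 in the controls. ZNF253, the untested member with the most, had 2, 1 and 0 reads in the libraries labelled knockout and 1, 3 and 0 in the controls.

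The members without a read were ZNF66, ZNF90, ZNF93, ZNF98, ZNF99, ZNF208, ZNF257, ZNF486, ZNF492, ZNF676, ZNF682, ZNF726 and ZNF728. With 90952789 reads in genes over the 6 libraries, a count of 0 allows a level of up to 0.033 CPM. ZNF93, the LINE-1 repressor, was thus not detectable at this depth in either group, whereas its relative ZNF91 was among the 5 members with the highest CPM. The remaining low genes were ZNF43 with 1 read, ZNF681 with 1, ZNF626 with 2, ZNF429 with 6 and ZNF253 with 7. Of the ZNF429 reads 5 came from knockout replicate 1, and no other low member exceeded 3 reads in a library. Silent members are defined by failing the filter, so it follows from the definition that none reached it in the libraries labelled knockout.

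**Figure D1:**
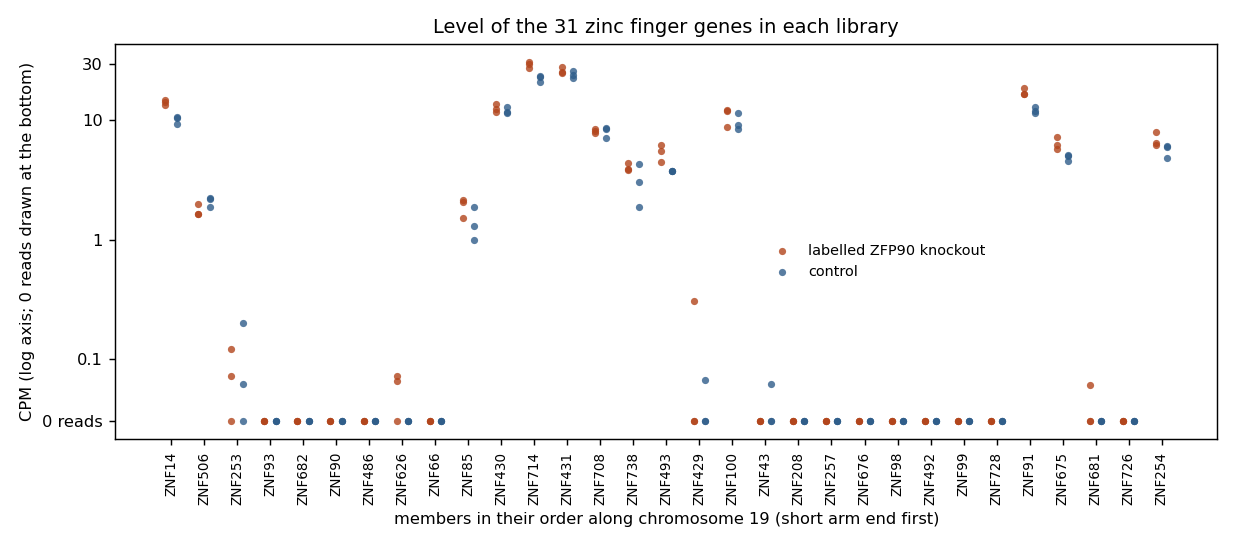
CPM of each of the 31 members (log axis) in the 3 libraries labelled ZFP90 knockout (red, left) and the 3 control libraries (blue, right), ordered along chromosome 19, with 0 reads drawn at the bottom. The tested members fall into 5 blocks between stretches of 7, 1, 8 and 2 members at or near 0, and the pattern is alike in both groups.

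Read and silent genes lay in blocks along the chromosome. By GENCODE release 29 on GRCh38, used only to place genes by symbol because the counts were made on another build, the members span chromosome 19 from 19710471 to 24129961, a distance of 4.42 Mb. From the telomeric side, ZNF14 and ZNF506 were read and the next 7 members, ZNF253 to ZNF66, were not. The largest block of read genes was the next 7, from ZNF85 through ZNF430, ZNF714, ZNF431, ZNF708 and ZNF738 to ZNF493. After the silent ZNF429 and the read ZNF100 came 8 silent members, ZNF43 to ZNF728. ZNF91 and ZNF675 were read, ZNF681 and ZNF726 were not, and ZNF254 at the centromeric end was read. Both classes held genes on either strand, with 7 plus and 6 minus among the tested members and 9 and 9 among the untested. Of 9 other zinc finger genes or pseudogenes listed at the locus, 7 also had 0 reads in all libraries and 2, ZNF101 and ZNF724P, were tested. All 16 listed genes outside the C2H2 zinc finger family on either side of the cluster were tested.

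Close copies can lose reads when only uniquely placed reads are counted, and the tables listed 12.3% to 12.8% of reads as not uniquely aligned. A further 7.44% to 7.81% were listed as ambiguous, and the part of either loss in the low counts was not tested. Among the annotated transcripts, 50-base windows were sought in other genes, leaving out genes whose exons overlap those of a member. Windows shared only with such an overlapping gene thus counted as unique. The share of unique windows had a median of 96.5% for the 13 tested members (lowest 94.4%) and 95.6% for the 18 others (lowest 59.0%). Only ZNF98 and ZNF492 fell far below the rest, at 59.0% and 66.3%. For these 2 genes the count of 0 is uncertain. The other untested members had at least 91.6% unique windows. The read length was not used, and windows repeated elsewhere in the genome outside annotated transcripts were not counted. The windows also show that a tested member's count may still include or miss some reads of a relative.

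**Figure D2:**
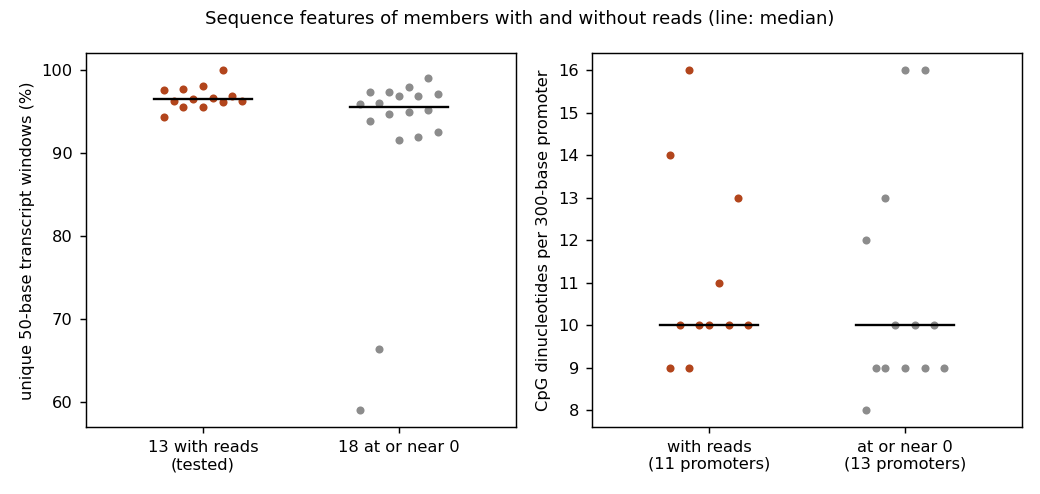
Share of unique 50-base transcript windows (left, percent) and CpG dinucleotides in the 300-base promoter (right) for tested members (red, left) and members at or near 0 (grey, right), with medians as lines. The window medians are 96.5% and 95.6% and both CpG medians are 10, and the pair of low points at left is ZNF98 and ZNF492.

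The promoters of read and silent members are shown here because they share sequence elements across both classes. RefSeq promoters (GRCh38.p14, 250 bases before to 50 after the gene start, 5′ to 3′ on the gene's strand) were found for 24 members, 11 tested and 13 not. Only 1 promoter was kept per gene, and which start these cells use was not tested. The windows of ZNF43, ZNF254 and ZNF429 lay inside the span that GENCODE gives each gene, away from its outermost start. The 4 called members come first, from the largest fold change down, followed by the silent ZNF43, which was picked after its values were seen. Capitals mark CCAAT on either strand and the 12-base word CTGTCACTCAGG. The windows are chr19:21396883-21397182 on the plus strand for ZNF493, chr19:23395422-23395721 on the minus strand for ZNF91, chr19:19733063-19733362 on the minus strand for ZNF14, chr19:21081953-21082252 on the plus strand for ZNF714 and chr19:21836133-21836432 on the minus strand for ZNF43.
ZNF493: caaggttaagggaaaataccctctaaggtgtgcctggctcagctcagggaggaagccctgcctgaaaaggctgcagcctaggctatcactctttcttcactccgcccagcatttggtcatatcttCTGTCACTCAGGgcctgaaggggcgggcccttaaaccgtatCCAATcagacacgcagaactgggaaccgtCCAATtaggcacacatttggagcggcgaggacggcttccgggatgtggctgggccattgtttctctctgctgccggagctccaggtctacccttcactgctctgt
ZNF91: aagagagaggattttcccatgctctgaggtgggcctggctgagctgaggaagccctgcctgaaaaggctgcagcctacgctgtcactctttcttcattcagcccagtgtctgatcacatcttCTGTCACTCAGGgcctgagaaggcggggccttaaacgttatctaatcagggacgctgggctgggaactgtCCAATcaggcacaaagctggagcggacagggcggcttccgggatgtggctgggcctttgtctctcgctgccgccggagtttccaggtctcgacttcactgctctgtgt
ZNF14: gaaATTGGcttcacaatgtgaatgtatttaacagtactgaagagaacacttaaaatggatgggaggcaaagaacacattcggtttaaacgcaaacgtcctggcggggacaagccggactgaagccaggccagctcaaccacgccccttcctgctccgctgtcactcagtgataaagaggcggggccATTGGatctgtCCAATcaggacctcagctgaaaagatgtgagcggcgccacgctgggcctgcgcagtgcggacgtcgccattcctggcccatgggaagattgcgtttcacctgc
ZNF714: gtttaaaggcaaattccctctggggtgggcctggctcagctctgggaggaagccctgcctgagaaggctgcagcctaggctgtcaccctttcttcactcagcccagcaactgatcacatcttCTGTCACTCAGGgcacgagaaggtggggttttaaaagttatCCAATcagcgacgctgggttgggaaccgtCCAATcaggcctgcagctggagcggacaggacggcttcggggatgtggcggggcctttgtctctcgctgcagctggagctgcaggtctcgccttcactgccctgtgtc
ZNF43: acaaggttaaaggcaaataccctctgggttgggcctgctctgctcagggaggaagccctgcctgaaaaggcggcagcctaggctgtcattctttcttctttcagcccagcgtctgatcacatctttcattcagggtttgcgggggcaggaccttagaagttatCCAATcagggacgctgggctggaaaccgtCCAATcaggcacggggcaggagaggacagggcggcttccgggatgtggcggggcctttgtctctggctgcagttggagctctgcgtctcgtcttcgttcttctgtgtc

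The CCAAT box, a binding sequence of the factor NF-Y, was present on either strand in all 24 promoters and at least 2 times in 17 of them, against 34.6% and 10.8% of all 35116 RefSeq promoters. The 8-base word CCAATCAG overlaps the box and was picked as the commonest word of that length in the members. It was in all 24 on the gene's strand, and on either strand in 3.97% of all promoters. In ZNF714 and in ZNF43 the boxes began at the same places, 87 and 58 bases before the gene start, and in ZNF493 84 and 55 bases before it. ZNF91 kept only the nearer box, 58 bases before the start. CTGTCACTCAGG, the commonest 12-base word, was in 16 of the 24 members on the gene's strand and on either strand in 0.108% of all promoters. ZNF14 lacked an exact match, though its printed promoter holds the word except for the last base. Its promoter was 44.4% to 50.6% identical to the others, with a median of 47.7%. Pairs without ZNF14 had a median identity of 77.4% where both genes were tested (range 55.2% to 91.0%) and 76.9% where neither was (range 48.8% to 87.4%), so the lowest of these pairs reached into the range of ZNF14.

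Base composition and counts of these words overlapped between read and silent members. The 11 tested members had 9 to 16 CpG dinucleotides per promoter and the 13 untested 8 to 16, with a median of 10 in each, against 14 over all promoters. At least 2 CCAAT boxes were found in 7 of 11 tested and 10 of 13 untested members. GGGCGG on either strand, the GC box, was found in 6 of 11 tested and 11 of 13 untested members, and in 44.95% of all promoters. These are matches of letters in a fixed window, and DNA methylation or binding was not measured in these libraries.

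The levels of the 13 read members were compared per kilobase of annotated exon, as mean CPM per kilobase over the 6 libraries. ZNF14 was highest at 4.13, with ZNF714 next at 3.24, and their ranges over the libraries overlapped. A gap without overlap followed, and then ZNF708, ZNF430, ZNF431, ZNF100, ZNF91, ZNF738, ZNF675 and ZNF254, from 1.88 down to 0.827, each overlapping its neighbour in this order. ZNF493 at 0.409, ZNF85 at 0.353 and ZNF506 at 0.228 came last. The range of ZNF493 did not overlap that of ZNF254, its neighbour in this order, but overlapped that of ZNF738, whose libraries were spread more widely. ZNF675, which encodes a protein that binds the signalling adaptor TRAF6, lay at 0.833 on this scale. The highest member exceeded the lowest 18.1-fold per kilobase. Exon lengths came from GENCODE, which may differ from the annotation used for counting. Each length joins the exons of all annotated transcripts of a gene, so the order depends on how many are annotated. ZNF14 had 2949 bases and ZNF431 14132, and their mean CPM before division by length was 12.2 and 25.3.

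In the knockout contrast, 4 of the 13 tested members were called higher in the libraries labelled ZFP90 knockout and 0 were called lower (edgeR quasi-likelihood test, adjusted over 16369 genes at 0.05). Over all tested genes 9.73% were called higher and 11.4% lower (1593 and 1861 genes, or 986 and 2343 when scaled by library size only), and nothing is read from the members' share because this contrast was known when they were chosen. At an unadjusted p under 0.05, 5 members were higher and 0 lower, where 17.1% and 17.8% of all tested genes were. DESeq2 called 3 members higher and 0 lower, against 7.93% and 9.31% of all tested genes. limma-voom also called 3 higher and 0 lower, against 10.1% and 11.3%. The log2 fold change was above 0 for 12 of 13 tested members, with a median of 0.38 where the median of all tested genes was 0.01. The 12 became 11 with upper quartile or library size scaling, and without knockout replicate 3 or control replicate 1, as ZNF708 crossed 0. Without control replicate 3 the median was 0.20, and with any other library left out it lay between 0.33 and 0.40. In bulk RNA, a change in the share of cells that express a gene and a change in its RNA per cell cannot be told apart.

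ZNF91, the SVA repressor, measured 16.6, 16.7 and 18.7 CPM in the libraries labelled knockout, against 12.1, 12.96 and 11.7 CPM in the controls. Every knockout library lay above every control. Its log2 fold change was 0.50 (SE 0.09), and it was called under all 15 alternatives, from 0.43 to 0.54. The counts behind these values were 274, 236 and 286 reads in the libraries labelled knockout and 196, 197 and 156 in the controls.

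ZNF14 measured 14.2, 14.8 and 13.42 CPM in the libraries labelled knockout, against 10.8, 10.5 and 9.41 CPM in the controls. The groups did not overlap, and the log2 fold change was 0.46 (SE 0.10). ZNF714 had the highest mean CPM of the cluster, with 27.7, 29.7 and 31.02 CPM in the libraries labelled knockout, against 21.1, 23.6 and 23.2 CPM in the controls. Here too every knockout library was above the controls, and the log2 fold change was 0.38 (SE 0.08). The ZNF714 call was lost without knockout replicate 3, at a log2 fold change of 0.34. ZNF14 was called with each library left out.

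ZNF493 measured 5.56, 6.24 and 4.45 CPM in the libraries labelled knockout, against 3.77, 3.75 and 3.73 CPM in the controls. The groups did not overlap, but the 3 controls lay much closer together (coefficient of variation 0.429%) than counting error alone gives at these counts (13.36%). The log2 fold change was 0.53 (SE 0.16), and the call was lost with DESeq2, limma-voom, upper quartile or library size scaling and without knockout replicate 1 or 2 or control replicate 1 or 3. ZNF493 thus had the largest fold change among the tested members and the least stable call of the 4.

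**Figure D3:**
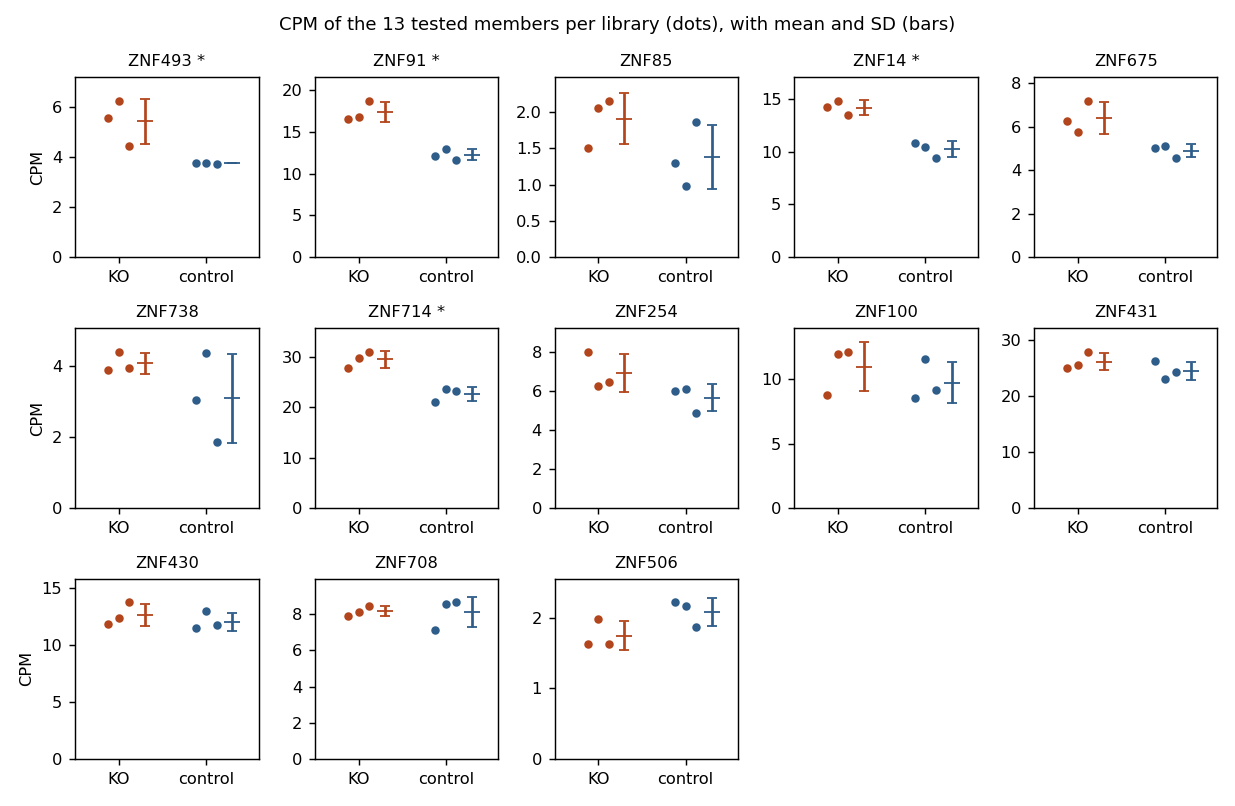
CPM of the 13 tested members in the 3 libraries labelled ZFP90 knockout (KO, left) and the 3 controls (right), as dots, with mean and SD beside them, ordered by fold change, with an asterisk on the 4 called higher. Groups do not overlap for those 4 and for ZNF675 and ZNF254, and ZNF506 is the only member whose mean is lower in the knockout libraries.

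For 6 of the 13 tested members every knockout library lay above every control, as for 20.9% of all tested genes, and for 0 every knockout library lay below. The 2 besides the called ones were ZNF675 and ZNF254. ZNF675 measured 6.28, 5.75 and 7.20 CPM in the libraries labelled knockout, against 5.00, 5.13 and 4.55 CPM in the controls, with a log2 fold change of 0.39 (SE 0.14). ZNF254 measured 8.04, 6.24 and 6.48 CPM in the libraries labelled knockout, against 5.99, 6.12 and 4.85 CPM in the controls, with a log2 fold change of 0.29 (SE 0.15). Neither passed the threshold, and the lowest knockout library of ZNF254 was only just above the highest control.

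ZNF431 and ZNF430, neighbours of ZNF714 on the plus strand, differed little between the groups. ZNF431 measured 24.95, 25.5 and 27.9 CPM in the libraries labelled knockout, against 26.2, 22.9 and 24.2 CPM in the controls (log2 fold change 0.09, SE 0.08). ZNF430 measured 11.8, 12.4 and 13.7 CPM in the libraries labelled knockout, against 11.5, 12.96 and 11.7 CPM in the controls (log2 fold change 0.07, SE 0.10). The groups overlapped for both. The promoter of ZNF431 was the one most like that of ZNF714, at 91.0% identity, and the difference between their fold changes was not tested. An annotated pseudogene, VN1R82P, shares 356 exon bases with ZNF431 on the same strand. It had 23, 24 and 20 reads in the libraries labelled knockout and 23, 16 and 25 in the controls.

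For the other read members the groups overlapped as well, and ZNF85 and ZNF738 had the largest SEs of the 13. ZNF708 and ZNF100 had log2 fold changes of 0.01 (SE 0.12) and 0.17 (SE 0.16). ZNF85 had 0.47 (SE 0.28) at 1.91 ± 0.349 CPM in the libraries labelled knockout and 1.38 ± 0.446 CPM in the controls (SD, n = 3 each). ZNF738 had 0.38 (SE 0.26), and its controls were wide apart at 3.02, 4.34 and 1.87 CPM, where the libraries labelled knockout measured 3.87, 4.40 and 3.93 CPM. It was called without control replicate 2, at a log2 fold change of 0.70, and in no other alternative. ZNF506 was the one tested member with a negative value, -0.26 (SE 0.19), at 1.63, 1.99 and 1.64 CPM in the libraries labelled knockout against 2.22, 2.17 and 1.87 CPM in the controls.

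**Figure D4:**
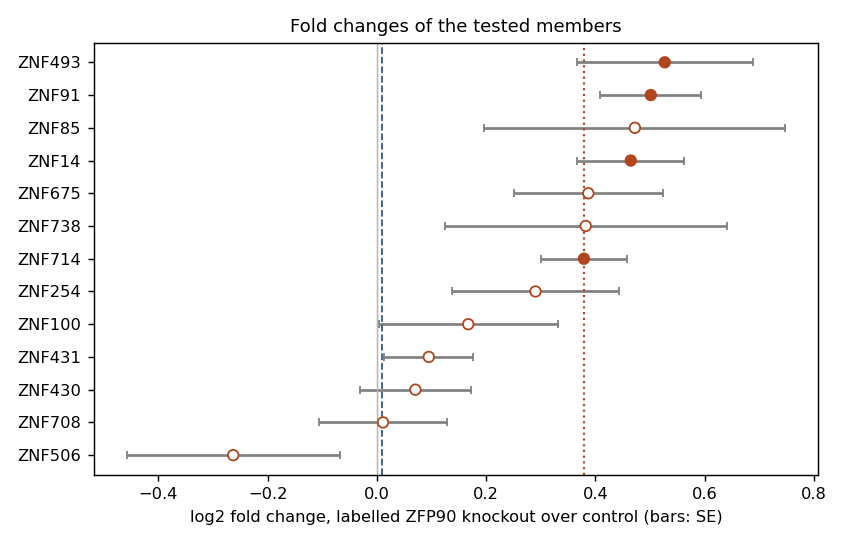
Log2 fold change of each tested member, libraries labelled ZFP90 knockout over control, with SE bars; filled points were called higher, the red dotted line is the members' median (0.38) and the blue dashed line the median of all tested genes (0.01). Values run from -0.26 for ZNF506 to 0.53 for ZNF493.

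Summed over the 13 read members, the cluster held 138.8, 145.9 and 151.2 CPM in the libraries labelled knockout, against 118.6, 125.6 and 116.8 CPM in the controls. The knockout libraries were all above the controls, and the ratio of the means was 1.21. ZNF714 and ZNF431, the 2 members with the highest CPM, made up 37.8% to 38.9% of this sum in the libraries labelled knockout and 37.1% to 40.6% in the controls, and these ranges overlapped. The 18 other members together had 8, 2 and 1 reads in the libraries labelled knockout and 2, 4 and 0 in the controls.

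In 3 other zinc finger clusters on chromosome 19, log2 fold changes were above 0 for 22 of 23 tested genes at 19q13.41, 28 of 34 at 19q13.43 and 13 of 14 at 19q13.1. These clusters also hold KRAB zinc finger genes, listed here by locus. Beside the counts below, 9.73% of all tested genes were called higher and 11.4% lower. Of the 961 tested genes on chromosome 19, which include the members and genes of these clusters, 13.9% were called higher. At 19q13.41, 9 of 23 tested genes were called higher and 0 lower, with a median log2 fold change of 0.40, and 6 to 13 were higher with 1 library left out. ZNF616, ZNF480 and ZNF845 were higher there by 0.64, 0.58 and 0.56. At 19q13.43, 10 of 34 were called higher and 0 lower, with a median of 0.21; ZNF550, ZNF419 and ZNF134 were higher by 1.56, 0.99 and 0.69. That count was 5 without knockout replicate 3 and 6 without control replicate 3. At 19q13.1, 3 of 14 were called higher and 0 lower, with a median of 0.28, and ZNF461, ZNF607 and ZNF146 were higher by 0.93, 0.37 and 0.34. That count was 1 without any 1 knockout library or without control replicate 3, and 5 without control replicate 2, and DESeq2 called 1. At an unadjusted p under 0.05, 0 genes of these 3 clusters were lower in edgeR, and DESeq2 and limma-voom called 0 lower. With no filter on low counts, 1 gene at 19q13.41 was called lower. The clusters were not tested against each other or against the members.

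**Figure D5:**
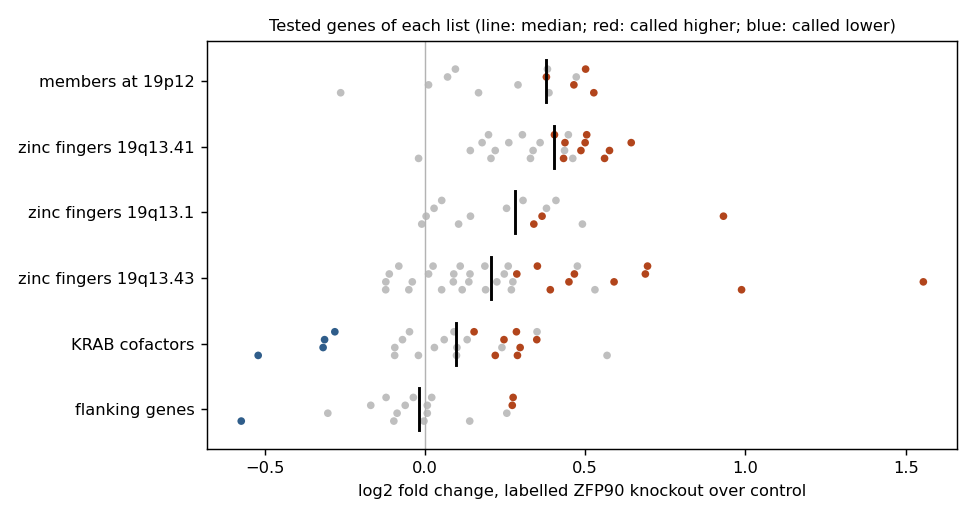
Log2 fold change (libraries labelled ZFP90 knockout over control) of each tested gene in 6 lists, as dots in red where called higher, blue where called lower and grey otherwise, with the list median as a black line. The medians are 0.38 for the 19p12 members and 0.40, 0.28 and 0.21 for the other zinc finger clusters. For the list marked KRAB cofactors, which also holds other chromatin factors, the median is 0.10. For the genes listed on either side of the cluster (flanking genes) the median is -0.02.

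Silent genes were also found in those clusters, though the share at or near 0 differed. Of the 31 members 58.1% failed the filter on low counts, against 51.7% of 29 listed genes at 19q13.1, 37.8% of 37 at 19q13.41 and 37.0% of 54 at 19q13.43. Genes with 0 reads in all 6 libraries numbered 13 among the members, 8 at 19q13.1, 2 at 19q13.41 and 11 at 19q13.43. These shares were not tested against each other.

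The genes listed on either side of the cluster, none of the C2H2 zinc finger family, had a median log2 fold change of -0.02. Of these 16 genes, 2 were called higher and 1 lower. Their distances from the cluster were not computed, so they need not be its close neighbours. GATAD2A, a subunit of the NuRD corepressor complex, was higher by 0.28 and CILP2 by 0.27, and PLEKHF1 was lower at -0.57. Only 1 was called higher without any 1 knockout library or without control replicate 1, and 0 lower without knockout replicate 2 or 3 or control replicate 1. DESeq2 called 1 higher and 0 lower, and upper quartile or library size scaling 1 higher and 2 lower. ZNF101 and ZNF724P, the 2 tested zinc finger genes of the locus outside the members, had log2 fold changes of 0.21 (SE 0.12) and 0.36 (SE 0.19). Neither was called, by edgeR, DESeq2 or limma-voom, nor did either have an unadjusted p under 0.05.

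Among 25 listed genes for KRAB cofactors and other chromatin factors, 7 (28.0%) were called higher and 4 (16.0%) lower. Over all tested genes these shares were 9.73% and 11.4%. All 25 passed the filter on low counts, and they were not compared with genes of like level. Their median log2 fold change was 0.10. TRIM28, the corepressor that binds the KRAB domain, measured 376.4, 388.8 and 376.3 CPM in the libraries labelled knockout, against 307.1, 319.8 and 309.8 CPM in the controls. Its groups did not overlap, with a log2 fold change of 0.29 (SE 0.04). The histone H3.3 chaperone DAXX was higher by 0.35, the DNA methyltransferase DNMT3A lower at -0.52 and UHRF1, which guides maintenance methylation, lower at -0.32. SETDB1, the H3K9 methyltransferase of the pathway, measured 57.2, 58.8 and 58.2 CPM in the libraries labelled knockout, against 61.0, 63.7 and 61.2 CPM in the controls. It was not called, at -0.09 (SE 0.05). The higher count was 3 without knockout replicate 1, 2 without knockout replicate 3 and 4 without control replicate 3, and the lower count was 2 without knockout replicate 1. When scaled by library size alone, 3 were called higher.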

How the data were processed

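Per the labels' protocols, a TruSeq kit was used on 1 µg of total RNA per library. Each library's deposited table holds the authors' unnormalized read counts by gene symbol; TopHat2 2.0.11 and HTSeq, with builds hg19 and GRCh37, are named in the submitters' processing notes. No source used here gives the strand setting or the annotation, so overlapping or antisense genes cannot be told apart. The 5 summary lines of each table held 31.7% to 32.4% of reads and stayed out of sizes and tests.

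Counts were tested with edgeR 4.0.16 (R 4.3.3; quasi-likelihood test, TMM scaling, filterByExpr defaults, Benjamini-Hochberg over 16369 genes, threshold 0.05). CPM used TMM-scaled sizes. Alternatives were other scalings and filters, DESeq2 1.42.0, limma-voom (3.58.1), a replicate block, a threshold of 0.01 and each library left out. Window uniqueness and promoter words were computed from GENCODE 29 transcripts and RefSeq promoters. All 31 member symbols were matched directly, and 2 genes of the comparison lists through older symbols.

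The members and lists were chosen with earlier results of these data known. Every member is accounted for; values per library are given for called members and for the 5 with the highest CPM, and others where a statement needed them. From each comparison list at most 3 called genes with the largest fold changes are named, plus ZFP90 and TRIM28; other names were chosen after their values were seen. No replicate pair differed by less than sampling noise.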

Additional observations from a re-analysis of the deposited data

How the results depend on the processing

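The count of members called higher (4) was 1 at an adjusted p under 0.01 and 3 to 5 in all other alternatives, 3 to 5 with each library left out; the count called lower was 0 throughout. The members' median log2 fold change (0.38) ran from 0.1968 to 0.4008 with each library left out, the lowest without control replicate 3. ZNF708 changed sign, to -0.0117 with upper quartile scaling, -0.0563 with library size only, -0.015 without knockout replicate 3 and -0.0794 without control replicate 1; with each library left out it ran from -0.0794 to 0.0571. Of 195 values of single members, 177 kept direction and call, 13 lost a call, 1 gained one and 4 changed sign; 10 of the lost calls were those of ZNF493. Over all genes, 1593 were higher and 1861 lower. Library size only gave 986 higher and 2343 lower, an adjusted p under 0.01 gave 618 and 869, and leaving out each library gave 756 to 2261 higher and 1025 to 2361 lower. The cause of these shifts was not tested. Genes with under about 10 reads in a library cannot be compared at this depth.

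Replicate numbers were not taken as pairs in the main fit, and whether they pair the samples is not settled here. Same-numbered libraries had correlations of 0.049, 0.145 and 0.093 between their deviations from the group means across genes. For the other pairs these ran from -0.122 to 0.038. Each library did correlate best with its own number, a hint from the data and not the design. With the replicate block, 3 members were called higher (ZNF493 lost its call at 0.53), and 1623 genes were higher and 1840 lower.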
